A study of Mus musculus with 2 samples.

Results

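The genes described here encode the subunits, activators, assembly chaperones and inhibitor of the proteasome. They were chosen by name alone, as the protein-coding genes of the count table whose symbols begin with Psma, Psmb, Psmc, Psmd, Psme, Psmf or Psmg, and 49 of 19395 protein-coding genes met this rule. The member Psmc3ip shares only the beginning of its name and is no part of the proteasome, and it is kept because the rule holds it. The study sequenced the transcriptome of single cells sorted from the whole blood of 11 male wild-type C57BL/6J mice. Of these, 2 mice were in the age group of 10 weeks, 3 in that of 36 weeks, 3 in that of 77 weeks and 3 in the oldest group (99.1 to 101.1 weeks), here called old mice. Red blood cells were lysed and nucleated single cells were sorted into 1 plate per mouse, so that the mouse and its plate cannot be told apart.

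After the authors' quality filters 981 cells remained, of which 978 carried a cell type, and each held between 157049 and 1222914 counts (median 354514). The authors assigned the types from the same transcriptomes that are described here, so a difference between types is not independent of that assignment. There were 600 B-cells (BCell), 151 CD4+ T-cells (85 NveCD4T, 45 EffCD4T, 8 MemCD4T and 13 RegT) and 178 CD8+ T-cells (72 NveCd8T and 106 MemCD8T), besides 25 NK cells, 17 monocytes, 3 neutrophils, 3 basophils and 1 dendritic cell. The defining gene Cd79a was found in 98.8% of B-cells (2.65% among CD4+ T-cells). Cd3d was found in 94.7% of CD4+ and 96.1% of CD8+ T-cells and Cd8b1 in 89.9% of CD8+ T-cells, whereas Cd4 itself was found in 38.4% of CD4+ T-cells. Of the NK cell genes, Klrb1c was found in 17.2% of CD4+ and 9.55% of CD8+ T-cells and Klre1 in 12.6% and 19.1%. The third, Ncr1, was found in 0% and 0.562%. All cells of the old mice, and of 3 of the 8 younger mice, came from what the read file names give as lane 2. B-cells of the old mice held haemoglobin transcripts at 51.5 to 11454 CPM (counts scaled to the same total in every library) against 6825 to 91381 CPM in younger mice. More genes were found per cell of old mice at equal depth (2349 ± 39.9 against 1954 ± 118 in B-cells, SD over 3 and 8 mice). The mix of T-cells differed too: old mice held 2 NveCD4T and 9 EffCD4T cells against 83 and 36 in younger mice, and 7 NveCd8T and 41 MemCD8T cells against 65 and 65.

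The proteasome degrades proteins that carry chains of ubiquitin. Its core, the 20S particle, is a barrel of rings of alpha subunits, which form the gate, around rings of beta subunits, some of which cut the substrate. The 19S particle caps the barrel, with a base of ATPases that unfold substrates and a lid that removes ubiquitin. Lymphocytes and cells that have met interferon exchange the constitutive catalytic subunits Psmb5, Psmb6 and Psmb7 for Psmb8, Psmb9 and Psmb10, which gives the immunoproteasome, and cap it with the activator PA28 (Psme1 and Psme2), a form known for making peptides that are presented on MHC class I.

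A level is given as CPM after the counts of all cells of 1 type in 1 mouse were summed, for each mouse with at least 3 such cells. It is a share of all counts, so an amount of RNA per cell was not measured. Together the 49 genes took 0.752% of the counts of B-cells (SD 0.0666 over 11 mice), while their share was 0.961% ± 0.0831 for CD4+ T-cells and reached 0.897% ± 0.106 for CD8+ T-cells. Among the authors' finer types with at least 3 mice the summed level was 8888 ± 1401 CPM in NveCD4T (8 mice) and 10550 ± 1256 CPM in EffCD4T (9 mice). It was 9157 ± 1264 CPM in NveCd8T (9 mice), 9073 ± 1373 CPM in MemCD8T (11 mice), 10199 ± 642 CPM in NK cells (4 mice) and 8612 ± 1888 CPM in monocytes (3 mice), against 7517 ± 666 CPM in B-cells. The ranges of the T-cell types and monocytes overlapped one another and that of B-cells. Within each mouse, however, the types can be paired. The sum was lower in B-cells than in CD4+ T-cells in 11 of 11 mice, and likewise than in CD8+ T-cells. The lowest NK value (9291 CPM) lay above the highest B-cell value (8828 CPM).

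Levels of different genes were compared only after division by the length of their exons. In B-cells the highest levels per kb were those of Psmb2 (184 ± 70.4 CPM per kb), a structural beta subunit, Psmb8 (184 ± 22.9), the alpha subunit Psma5 (170 ± 28.1), Psme2 (165 ± 51.0) and Psmb10 (133 ± 25.5). Neighbours in this order differed by less than their spread over mice. In CD4+ and CD8+ T-cells the highest member was Psme2, at 421 ± 132 and 411 ± 70.0 CPM per kb, followed by Psmb8 at 252 ± 67.4 and 249 ± 60.5. The order depends on the length used: per kb of the principal transcript, an alternative chosen after seeing the data, Psmb8 came first in B-cells (381 CPM per kb), ahead of Psmb1 (317) and Psme2 (303), while Psme2 kept the first place in CD4+ and CD8+ T-cells (773 and 754). Among the 19 members that had a count in at least 25% of B-cells, the lowest level was that of Psmd12, a subunit of the lid (37.8 ± 15.2 CPM per kb). All 7 alpha genes and the 4 structural beta genes lay within 51.6 to 184 CPM per kb in B-cells, whereas the assembly chaperones ranged from 5.60 (Psmd9) to 68.2 CPM per kb (Psmg4) and the inhibitor Psmf1 lay at 8.69 ± 4.58. No member was without a count. Psmb11, which replaces a catalytic subunit in the cortex of the thymus, had the fewest: it was found in 4.83% of B-cells but at a mean of only 0.145 CPM, so a few percent of cells with a count is what this assay gave for a gene at next to no level. Psmc3ip lay at 10.2 ± 12.5 CPM and was found in 1.33% of B-cells.

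**Figure D1:**
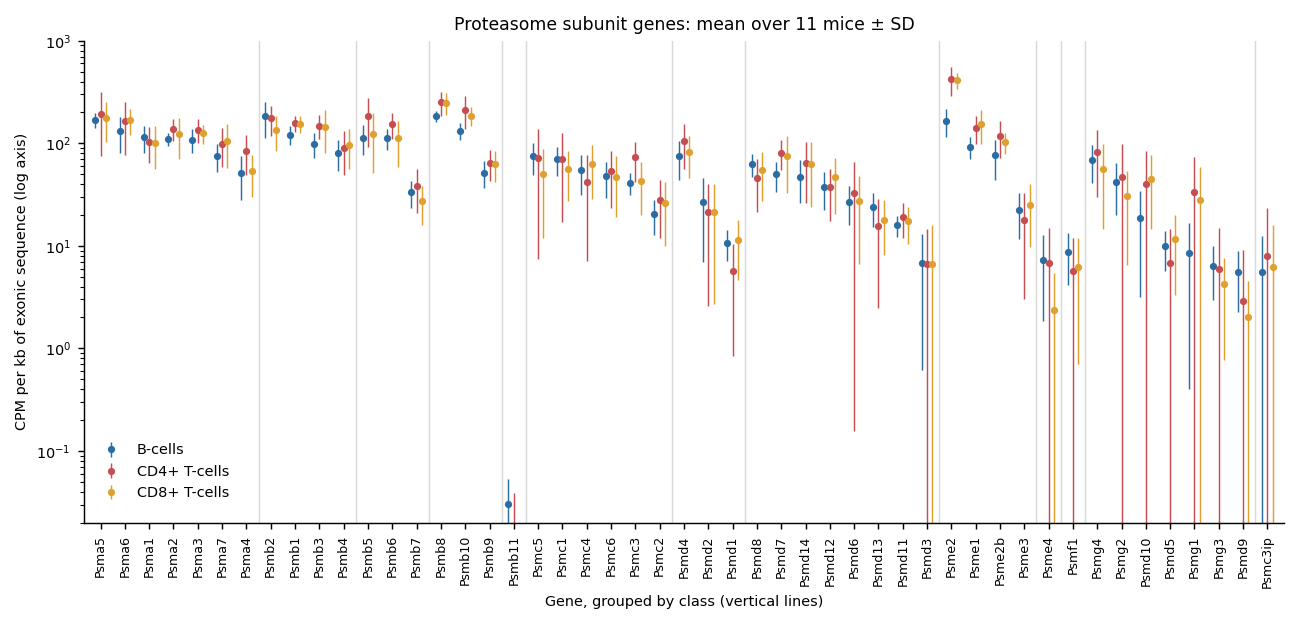
Level of each member gene in B-cells and in both classes of T-cells (CD4+, CD8+), as the mean over 11 mice of CPM per kb of exonic sequence on a log axis, with the SD over mice (bars that reach the lower edge extend to or past it). Genes are grouped by class in the order alpha ring, structural beta, constitutive catalytic, immunoproteasome, thymus form, 19S base, 19S lid, activators, inhibitor, chaperones and Psmc3ip. The PA28 gene Psme2 stands highest in both T-cell types, and Psmb11 lies near the lower edge, below it in CD8+ T-cells.

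Which proteasome genes differed between B-cells and T-cells was tested first. The activator PA28 set the cells apart most: Psme2 was 2.37-fold lower in B-cells than in CD4+ T-cells and 2.46-fold lower than in CD8+ T-cells. Its partner Psme1, the immunoproteasome subunits Psmb8 and Psmb10 and the structural beta subunits Psmb1 and Psmb3 were called lower in B-cells in 1 or both comparisons, by 1.22- to 1.58-fold, and the structural beta subunit Psmb2 was called higher in B-cells than in CD8+ T-cells. None of the tested subunits of the alpha ring or the 19S particle, and none of the 3 constitutive catalytic subunits, was called by edgeR. Other tools and settings called some of them.

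Psme2 encodes the beta subunit of PA28 and lies on chromosome 14 (chr14:55587441-55591113, GRCm38, minus strand), close to Psme1 (chr14:55578123-55581529, plus strand). It lay between 143 and 417 CPM in the B-cells of the 11 mice (median 282), between 237 and 1032 CPM in their CD4+ T-cells (median 777) and between 484 and 923 CPM in their CD8+ T-cells (median 713). Every mouse was lower in B-cells than in CD8+ T-cells, and 10 of 11 were lower than in CD4+ T-cells (the exception, an old mouse with 8 CD4+ T-cells, lay at 237 CPM in them and 243 CPM in B-cells). The log2 fold change was -1.24 ± 0.19 (SE) against CD4+ T-cells (adjusted p = 1.77e-05, edgeR quasi-likelihood test with the mouse as a block) and -1.30 ± 0.19 against CD8+ T-cells (adjusted p = 6.8e-06, edgeR). After a draw of 150000 counts per cell, which removes differences in depth, it was found in 54.8% of B-cells (57.5% without the draw), against 82.8% for CD4+ and 86.5% for CD8+ T-cells. Within the finer types Psme2 lay at 727 ± 180 CPM in NveCD4T, 790 ± 258 CPM in EffCD4T, 757 ± 167 CPM in NveCd8T, 701 ± 168 CPM in MemCD8T and 685 ± 238 CPM in NK cells, which differed by less than their SDs, and at 488 ± 341 CPM in monocytes. A near copy on chromosome 11, Psme2b, cannot be separated from it with certainty: 94.6% of the cells with a Psme2b count also held Psme2, and only 1.33% of Psme2b counts lay in cells without it. The 2 genes summed to 355 ± 105 CPM in B-cells, 842 ± 244 CPM in CD4+ T-cells and 811 ± 131 CPM in CD8+ T-cells.

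Psme1, the alpha subunit of PA28, whose gene overlaps Emc9, lay between 145 and 284 CPM in B-cells (median 193), between 149 and 478 CPM in CD4+ T-cells (median 325) and between 126 and 484 CPM in CD8+ T-cells (median 376). The ranges overlapped, but 9 of 11 mice were lower in B-cells in each comparison. The log2 fold change was -0.66 ± 0.22 against CD8+ T-cells (adjusted p = 0.0261, edgeR) and -0.51 ± 0.22 against CD4+ T-cells, which missed the threshold of 0.1 (adjusted p = 0.101, edgeR). The third form of the activator, Psme3, which caps proteasomes in the nucleus, lay at 65.2 ± 30.7 CPM in B-cells, 52.5 ± 43.5 CPM in CD4+ T-cells and 73.1 ± 44.2 CPM in CD8+ T-cells and was found in too few cells to be tested between types.

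The genes Psmb8 (chr17:34197721-34201454) and Psmb9 (chr17:34181987-34187764) lie within the MHC. Psmb8 lay between 544 and 779 CPM in B-cells (median 599), between 551 and 1235 CPM in CD4+ T-cells (median 764) and between 460 and 1137 CPM in CD8+ T-cells (median 865). Its level was lower in B-cells than in CD4+ T-cells in 9 of 11 mice and lower than in CD8+ T-cells in 10 of 11, with log2 fold changes of -0.33 ± 0.13 (adjusted p = 0.079, edgeR) and -0.35 ± 0.13 (adjusted p = 0.054, edgeR). Psmb10 lay between 167 and 322 CPM in B-cells, between 81.8 and 547 CPM in CD4+ T-cells and between 140 and 388 CPM in CD8+ T-cells. Its log2 fold change in B-cells was -0.52 ± 0.22 against CD4+ T-cells (adjusted p = 0.0918, lower in 10 of 11 mice, edgeR), a call kept in 1 of 11 fits without a mouse, and -0.40 ± 0.21 against CD8+ T-cells (adjusted p = 0.189, edgeR). Psmb9, whose gene overlaps that of the peptide transporter Tap1, lay at 189 ± 56.2 CPM in B-cells, 237 ± 81.0 CPM in CD4+ T-cells and 232 ± 78.4 CPM in CD8+ T-cells and was not called by edgeR (limma called it lower in B-cells in both comparisons). The T-cells spread wider than the B-cells for Psmb8 and Psmb10, and for Psmb10 the lowest mouse in each T-cell type lay below the lowest in B-cells. Their sums rested on fewer cells per mouse (3 to 21 CD4+ and 7 to 29 CD8+ T-cells against 29 to 78 B-cells). The part of cell number in the spread was not tested.

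Their constitutive counterparts gave no call with edgeR in either comparison. At a minimum of 10 cells per mouse and type edgeR called Psmb5 lower against CD4+ T-cells. Limma called Psmb5 and Psmb6 lower in both comparisons and Psmb7 against CD4+ T-cells. Psmb5 lay at 102 ± 32.6 CPM in B-cells, 166 ± 84.3 CPM in CD4+ T-cells and 111 ± 65.0 CPM in CD8+ T-cells. In the same order Psmb6 lay at 209 ± 49.5, 287 ± 82.5 and 209 ± 98.9 CPM and Psmb7 at 113 ± 33.3, 132 ± 60.3 and 92.9 ± 38.8 CPM. Among the structural beta subunits, Psmb1 rested on the most counts. It lay between 407 and 701 CPM in B-cells (median 575), between 588 and 971 CPM in CD4+ T-cells (median 686) and between 518 and 960 CPM in CD8+ T-cells (median 699), and its log2 fold changes were -0.29 ± 0.11 (adjusted p = 0.0555, edgeR) and -0.30 ± 0.11 (adjusted p = 0.0426, edgeR). Psmb3 lay at 227 ± 63.0 CPM in B-cells and 342 ± 91.0 CPM in CD4+ T-cells, a log2 fold change of -0.54 ± 0.21 (adjusted p = 0.0725, edgeR); against CD8+ T-cells (335 ± 152 CPM) it was not called (adjusted p = 0.136, edgeR). Psmb2 went the other way, at 221 ± 84.8 CPM in B-cells and 161 ± 58.9 CPM in CD8+ T-cells, a log2 fold change of 0.54 ± 0.23 (adjusted p = 0.0972, higher in 8 of 11 mice, edgeR).

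**Figure D2:**
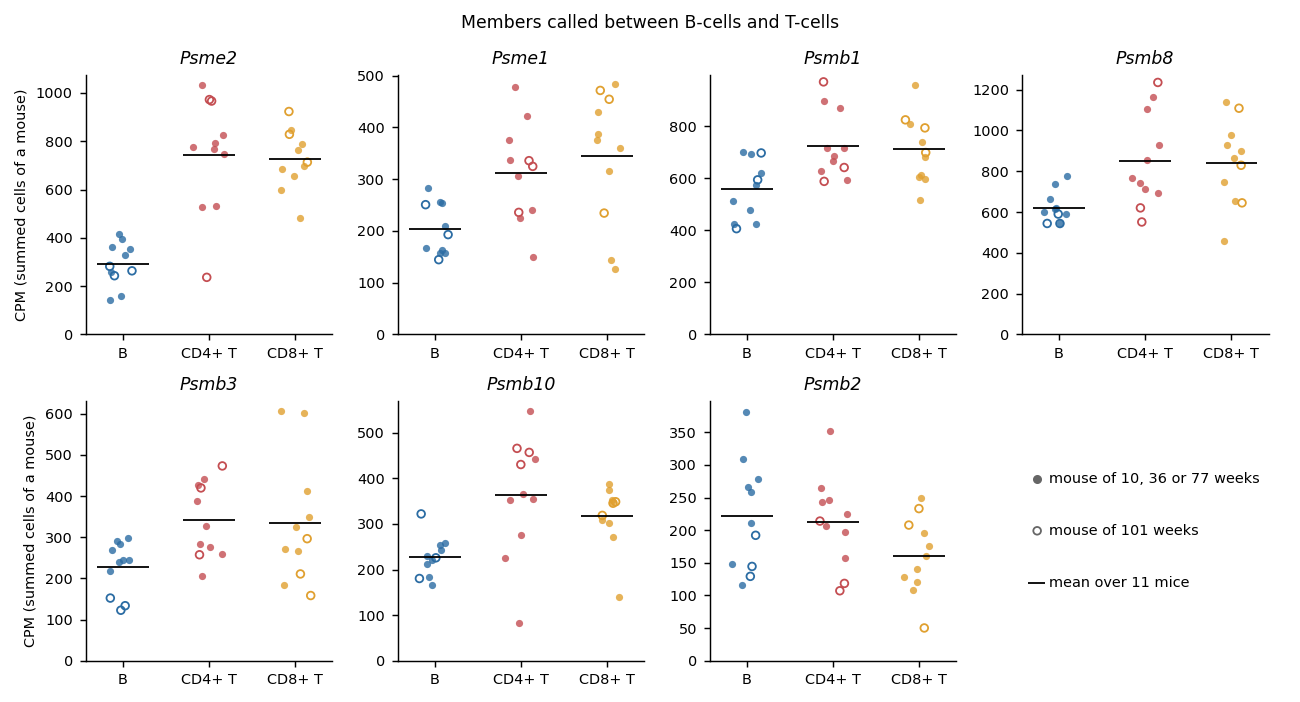
CPM per mouse of the 7 members called between B-cells and T-cells, by type, over the same 11 mice (filled points, 10 to 77 weeks, open points, old mice, line, mean). For Psme2 the B-cells of all mice lie at or below 417 CPM and the CD8+ T-cells at or above 484 CPM, whereas the ranges of the other 6 genes overlap.

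Over the whole set, 5 of the 29 tested members were called lower and 0 higher in B-cells against CD4+ T-cells, where 15.7% of all 1983 tested genes were called lower and 12.0% higher. Against CD8+ T-cells 4 were called lower and 1 higher, where the background was 17.9% and 14.2%. The share of members called lower was thus near that of all genes and did not set the members apart. Fewer were called higher (0 and 1 of 29, beside 12.0% and 14.2% of all genes), a difference that was not tested. In the main edgeR fit the median log2 fold change of the members was -0.25 against CD4+ T-cells and -0.16 against CD8+ T-cells, beside 0.10 and 0.12 for all tested genes. There 22 and 18 of the 29 members (75.9% and 62.1%) lay below 0, beside 44.7% and 44.6% of all tested genes. These values do not cover the other settings below, in which the direction of the set may differ. By class, all 3 tested PA28 genes (Psme1, Psme2 and its near copy Psme2b) and all 3 immunoproteasome genes had values below 0 in both comparisons. The 3 constitutive catalytic genes lay below 0 against CD4+ T-cells (-0.49 to -0.05) and above 0 against CD8+ T-cells (0.05 to 0.39). Another setting ended most of these calls: with cells that the authors classed as without contaminating red blood cells (a class set from the counts of haemoglobin genes, which may still hold some of them), or with no filter on detection, Psme2 was the 1 member still called in each comparison, and it was called under each of the 8 alternatives tried. Without 1 mouse at a time, 1 to 4 members were called against CD4+ T-cells (1 without mouse 1, an old mouse, or mouse 23, of 77 weeks) and 3 to 5 against CD8+ T-cells, Psme2 among them each time. The call of Psme1 against CD8+ T-cells was also kept in all 11 of these fits. Against CD4+ T-cells Psmb1 was called in 5 of 11, Psmb3 in 4, Psmb8 in 3 and Psmb10 in 1, and against CD8+ T-cells Psmb1 in 7, Psmb8 in 5 and Psmb2 in 4. With limma on the mean log2(CPM + 1) of cells, 0 members were called higher and 19 and 22 lower, beside 39.3% and 48.9% of all genes called lower, and there the median of all tested genes moved to -0.51 and -0.71. Genes of the alpha ring and the 19S particle were among the calls of other fits. DESeq2 called 1 member higher (Psmc4) and 7 lower (Psmd7 among them) against CD4+ T-cells, beside 397 and 337 (17.0%) of all 1983 tested genes. Against CD8+ T-cells it called Psmb2 higher and Psme1 and Psme2 lower, beside 23.1% and 18.2%. Limma called Psma2, Psma3, Psma4, Psma6, Psma7, Psmd4 and Psmd7 lower in both comparisons. EdgeR called Psmc4, Psmc3, Psmd7 or Psma7 in 1 fit each without a mouse.

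**Figure D3:**
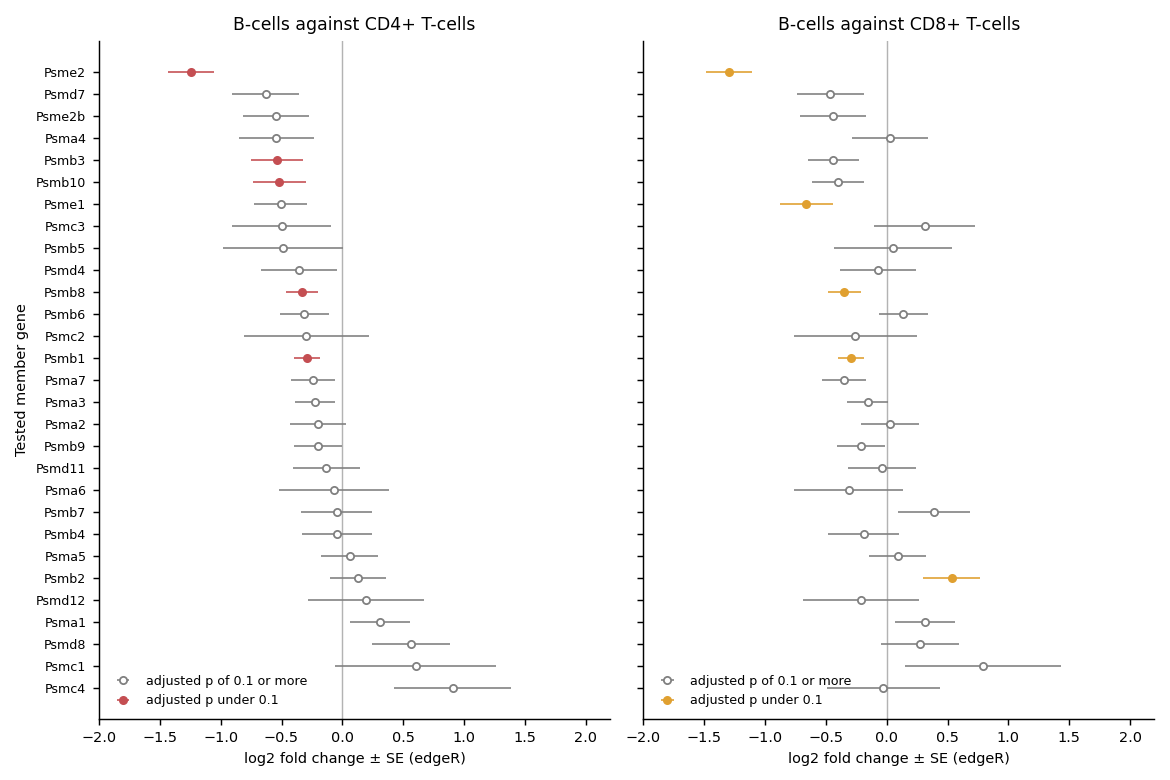
Log2 fold change with its SE (edgeR) of the 29 tested members in B-cells against CD4+ T-cells (left) and against CD8+ T-cells (right), ordered by the left panel, with filled points for an adjusted p under 0.1. Psme2 lies furthest to the left in both panels (-1.24 and -1.30), and most of the other members lie within 1 of 0.

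The windows around the RefSeq starts of the called genes are shown because these genes moved in 1 direction, save Psmb2, and because PA28 and the immunoproteasome are known targets of interferon. The windows run from 250 bases before to 50 after the start in build GRCm38.p6, 5′ to 3′ on the strand of the gene, and such a window was given for 42 of the 49 members (for Psmb1 and Psmb2 among the called genes it was not). The motifs searched on both strands were GAAA, any 2 bases and GAAA again, the core of the interferon-stimulated response element, and TGACNNNGC, the antioxidant response element, which proteasome genes are known to carry. Capitals mark each match. Psme2 lies at chr14:55591052-55591351 on the minus strand (the first of its 2 listed starts), Psme1 at chr14:55578244-55578543 (plus), Psmb8 at chr17:34197945-34198244 (plus), Psmb10 at chr8:105938343-105938642 (minus) and Psmb3 at chr11:97703184-97703483 (plus).
Psme2: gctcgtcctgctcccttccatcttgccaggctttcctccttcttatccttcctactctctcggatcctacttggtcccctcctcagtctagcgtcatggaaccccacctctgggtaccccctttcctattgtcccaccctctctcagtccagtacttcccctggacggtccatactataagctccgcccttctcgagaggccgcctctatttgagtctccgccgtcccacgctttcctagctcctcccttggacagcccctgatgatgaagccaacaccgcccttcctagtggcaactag
Psme1: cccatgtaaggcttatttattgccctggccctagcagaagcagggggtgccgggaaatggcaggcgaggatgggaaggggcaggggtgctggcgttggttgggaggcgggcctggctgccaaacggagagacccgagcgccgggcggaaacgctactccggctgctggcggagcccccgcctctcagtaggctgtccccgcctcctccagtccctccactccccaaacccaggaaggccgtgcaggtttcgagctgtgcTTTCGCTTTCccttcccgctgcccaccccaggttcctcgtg
Psmb8: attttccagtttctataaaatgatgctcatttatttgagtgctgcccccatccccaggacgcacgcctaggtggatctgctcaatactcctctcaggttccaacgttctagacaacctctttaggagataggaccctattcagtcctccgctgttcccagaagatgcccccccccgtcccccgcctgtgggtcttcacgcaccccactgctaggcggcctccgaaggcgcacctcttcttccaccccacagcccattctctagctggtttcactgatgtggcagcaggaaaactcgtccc
Psmb10: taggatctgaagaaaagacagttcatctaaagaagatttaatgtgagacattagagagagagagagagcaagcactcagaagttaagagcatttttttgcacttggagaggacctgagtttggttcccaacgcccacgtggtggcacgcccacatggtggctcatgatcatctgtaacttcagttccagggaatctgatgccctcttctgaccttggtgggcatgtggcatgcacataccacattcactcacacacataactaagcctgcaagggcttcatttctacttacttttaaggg
Psmb3: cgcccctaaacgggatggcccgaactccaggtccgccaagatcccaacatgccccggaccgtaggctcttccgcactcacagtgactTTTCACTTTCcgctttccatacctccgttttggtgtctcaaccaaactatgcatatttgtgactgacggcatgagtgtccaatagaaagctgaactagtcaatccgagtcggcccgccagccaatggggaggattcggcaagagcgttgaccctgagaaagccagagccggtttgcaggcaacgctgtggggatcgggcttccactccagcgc
Psme1 and Psmb3 each held 1 match to the doubled GAAA, and the windows of Psme2, Psmb8 and Psmb10 held neither motif. The windows of Psmb8 and Psme1 lie inside the spans given above for these genes, so the bases before those spans were not searched. Of the 42 members with a window, 11.9% had the doubled GAAA (Psmb3, Psmd4, Psmd9, Psme1 and Psmg4), and 14.3% had TGACNNNGC (Psmb5 and Psmb6 among them). Of all 32851 windows of this length, 3.44% and 12.4% had them. The 2 rates are not alike, since a member counted if any of its windows matched, which favours genes with several starts. A match describes the letters and not a bound site.

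Of 11 tested genes of class I antigen presentation (of 14), 5 were called lower and 0 higher in B-cells against CD4+ T-cells, where 15.7% of all tested genes were called lower. These were the class I heavy chains H2-K1 (log2 fold change -0.75 ± 0.10, adjusted p = 1.72e-06, edgeR) and H2-D1 (-0.22 ± 0.08), their light chain B2m (-0.49 ± 0.09), the chaperone Pdia3 (-1.14 ± 0.20) and the class I transactivator Nlrc5 (-3.08 ± 0.67). Against CD8+ T-cells 4 were called lower, beside 17.9% of all tested genes: H2-K1 (-0.51 ± 0.10), B2m (-0.35 ± 0.09), Nlrc5 (-3.15 ± 0.67) and the peptide editor Tapbpl (-1.78 ± 0.58).

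Between T-cells edgeR called no member, while DESeq2 and limma called some between subtypes. Of the 29 members tested between CD4+ and CD8+ T-cells, 0 were called higher and 0 lower (background 1.11% and 3.38%, edgeR), and 1 was higher at an unadjusted p under 0.05 (background 4.69% higher and 7.82% lower), Psmb6, at 287 ± 82.5 CPM in CD4+ and 209 ± 98.9 CPM in CD8+ T-cells (log2 fold change 0.45 ± 0.20, adjusted p = 0.33). DESeq2 and limma also called none between these 2 types. The class I gene Pdia3 was called higher in CD4+ T-cells (0.75 ± 0.20, adjusted p = 0.0394, edgeR). Memory and naive CD8+ T-cells could be compared in 9 mice, and of 31 tested members 0 were called in either direction (background 0.550% higher and 0.254% lower, edgeR) and 0 had an unadjusted p under 0.05 (background 3.51% and 2.50%), whereas DESeq2 called 1 higher, Psmd11 (background 5.54%).

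Effector and naive CD4+ T-cells could be compared in 6 mice. Again 0 of 31 members were called in either direction (background 1.88% higher and 2.57% lower, edgeR) and 1 was higher at an unadjusted p under 0.05 (background 4.84% higher and 6.47% lower): Psmb8, whose log2 fold change was 1.04 ± 0.40 in effector cells (adjusted p = 0.326, edgeR). DESeq2 called 4 members higher in effector cells, Psmb8, Psma4, Psmc4 and Psmd14 (background 10.8%), and limma called Psme2 (background 8.19%). Over all mice with 3 such cells, Psmb8 lay at 1199 ± 387 CPM in EffCD4T (9 mice) and 643 ± 221 CPM in NveCD4T (8 mice), Psmb9 at 340 ± 90.0 and 178 ± 128 CPM and Psmb10 at 414 ± 159 and 283 ± 122 CPM. Of these mice, 3 of the 9 with EffCD4T and 0 of the 8 with NveCD4T were old. Age and subtype cannot be told apart in these means. The class I genes H2-K1 (0.67 ± 0.15, adjusted p = 0.0477, edgeR) and B2m (0.63 ± 0.16, adjusted p = 0.0863, edgeR) were called higher in effector cells.

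How far the catalytic genes were those of the immunoproteasome was described by a share, the summed CPM per kb of Psmb8, Psmb9 and Psmb10 out of that of all 6 catalytic genes. It is a ratio of transcripts and not of particles. It was 59.0% ± 4.60 (SD, n = 11 mice) in B-cells, while CD4+ T-cells had 58.9% ± 8.69 and CD8+ T-cells had 66.3% ± 6.61. Among the finer types the lowest mean was that of NveCD4T (51.0% ± 10.4, 8 mice) and the highest that of monocytes (72.1% ± 8.09, 3 mice), with EffCD4T at 64.5% ± 13.9, NveCd8T at 64.8% ± 11.3, MemCD8T at 65.5% ± 8.96 and NK cells at 61.4% ± 12.8. Neighbouring types differed by less than their SDs. Pair by pair in B-cells, Psmb10 made up 79.9% ± 5.11 of itself and Psmb7, Psmb8 62.6% ± 6.67 of itself and Psmb5, and Psmb9 31.7% ± 7.05 of itself and Psmb6. The means of both T-cell types had this order too, but it depends on the length used. Per kb of the principal transcript Psmb8 came first, at 77.4% ± 4.89 against 64.1% ± 7.35 for Psmb10 in B-cells, 74.0% ± 10.7 against 70.0% ± 9.95 in CD4+ T-cells and 81.4% ± 7.94 against 74.7% ± 10.8 in CD8+ T-cells. Psmb9 stayed last in each type (33.0% to 40.6%).

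**Figure D4:**
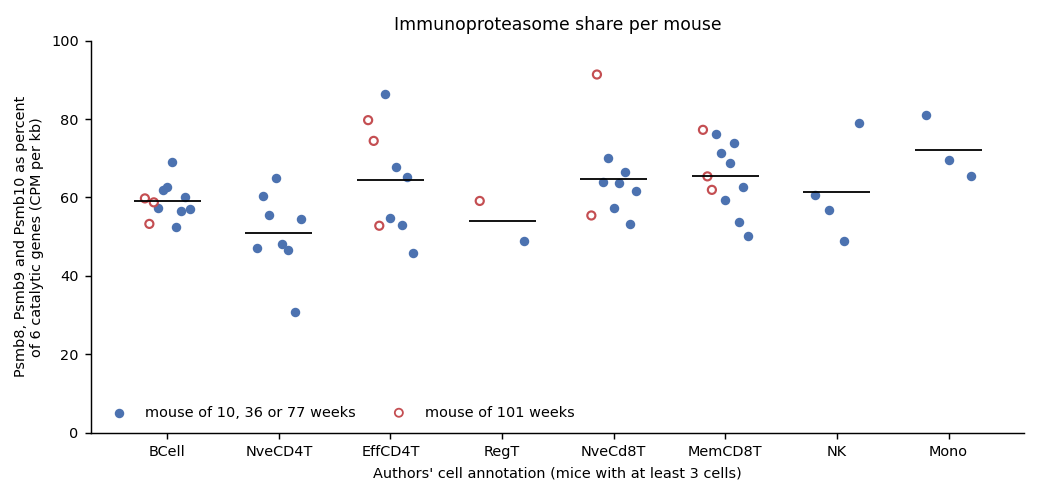
Share of Psmb8, Psmb9 and Psmb10 in the summed CPM per kb of the 6 catalytic genes, in percent, for each mouse with at least 3 cells of the authors' annotation (filled points, 10 to 77 weeks, open points, old mice, line, mean). NveCD4T has the lowest mean (51.0%) and no old mouse, and the open points of B-cells (53.3% to 59.8%) lie within the range of the filled ones.

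Levels in the 3 old mice were then set against those of the 8 younger mice. In B-cells 16 of 19 tested members had lower values in the old mice, as had 55.6% of all tested genes. With the number of genes found per cell as a covariate, which itself differed with age, this held for 10 of 19 members and 50.6% of genes. The summed level of the 49 genes was lower in each old mouse than in each younger mouse, but no single gene passed the test. The sums were 6466, 6544 and 7096 CPM in old mice and 7409 to 8828 CPM in younger mice (median 7727). The groups did not overlap, and the younger age groups had means of 7596, 8024 and 7774 CPM at 10, 36 and 77 weeks. Out of counts other than haemoglobin the sums stayed apart (6504 to 7178 against 7482 to 8906 CPM), as they did in cells of lane 2 (against 7409 to 8828 CPM in 4 younger mice). In cells that the authors classed as without contaminating red blood cells they overlapped (6510 to 7123 against 6380 to 9279 CPM). The log2 ratio of the old to the younger mean was -0.29 there and -0.22 with all counts. The SD of the younger mice was 976 and 456 CPM. In CD4+ T-cells the sums were 8366 to 10958 CPM in old mice and 8886 to 10922 CPM in younger mice. The CD8+ T-cells of old and younger mice had 7410 to 9508 and 8103 to 11616 CPM, so the age groups overlapped in both.

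Of the 19 members tested in B-cells 0 were called higher and 0 lower, as were 0% of all 1642 genes in each direction (edgeR), while DESeq2 called 4 members lower (background 2.07%) and limma 1 higher (background 22.7%). At an unadjusted p under 0.05, 6 members were lower, beside 5.24% of all genes, and 0 were higher, beside 4.02%. Their median log2 fold change was -0.37, beside -0.05 for all genes, and 16 of 19 lay below 0. With the mean number of genes found per cell of the mouse as a covariate the median was -0.10, beside -0.0067 for all genes, 10 of 19 lay below 0 and 2 were lower at an unadjusted p under 0.05. Over all cells of a mouse that number was 3026 to 3248 in old mice and 2384 to 2737 in younger mice, without overlap. This fit therefore cannot tell the covariate and age apart. With limma 10 of 19 lay below 0 too, with a median of -0.0064 beside 0.54 for all genes. The member with the smallest p was Psmb3, a structural beta subunit: it lay at 123, 134 and 152 CPM in old mice and at 219 to 297 CPM in younger mice (median 256), without overlap, a log2 fold change of -1.02 ± 0.23 (adjusted p = 0.17, edgeR). The alpha subunit Psma3 lay at 241, 286 and 398 CPM against 340 to 582 CPM, with overlap (log2 fold change -0.67 ± 0.22, adjusted p = 0.255, edgeR). The ATPase Psmc1 lay at 66.7, 90.8 and 109 CPM against 111 to 213 CPM, without overlap (-0.88 ± 0.30, adjusted p = 0.286, edgeR). Psma7 of the alpha ring lay at 142, 170 and 181 CPM against 182 to 372 CPM, again without overlap (-0.73 ± 0.26, adjusted p = 0.311, edgeR). Psmb3, Psmc1 and Psma7 were thus the 3 of 19 members that were lower in every old mouse, beside 1.34% of all genes, and 0 were higher in every old mouse, beside 3.11%.

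In CD4+ T-cells 0 of 29 members were called (background 0.103% higher and 0% lower, edgeR) and 0 had an unadjusted p under 0.05 (background 3.87% and 5.21%), whereas limma called 3 higher, Psma3, Psmc3 and Psmd4 (background 16.3%). The 3 old mice held 3, 6 and 8 CD4+ T-cells, and 0 members lay above or below every younger mouse in all of them (background 1.29% and 1.81%). In CD8+ T-cells 0 of 32 members were called (background 0% in both directions, edgeR), and 3 were lower at an unadjusted p under 0.05 (background 2.46% lower and 2.22% higher). Psma7 lay at 97.6, 180 and 194 CPM in old mice and 284 to 660 CPM in younger mice, without overlap (log2 fold change -1.34 ± 0.34, adjusted p = 0.529, edgeR). It was the 1 member of 32 that was lower in every old mouse, beside 0.780% of all genes, and 0 were higher, beside 1.31%. Psma1 (80.2, 189 and 251 against 180 to 501 CPM) and Psmb6 (76.2, 140 and 179 against 178 to 472 CPM) overlapped between the groups. DESeq2 called Psma7 lower (background 0.780%), and limma called Psmb1, Psmb4 and Psmb8 higher (background 14.9%). A difference of the age contrast between types was tested in 1 fit over the 3 types, and 0 of 29 members were called in any of the 3 pairs of types (smallest adjusted p = 0.242, for Psmb3 between CD4+ T-cells and B-cells, edgeR).

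For the immunoproteasome genes the values of old and younger mice overlapped in each type. Psmb8 lay at 544, 544 and 590 CPM in old B-cells and at 546 to 779 CPM in younger ones. It lay at 551, 620 and 1235 against 691 to 1162 CPM in CD4+ T-cells and at 645, 829 and 1108 against 460 to 1137 CPM in CD8+ T-cells. Psmb9 and Psmb10 overlapped between the ages in all 3 types, as did Psme1 and Psme2. In B-cells Psme2 lay at 243, 263 and 282 CPM in old mice and at 143 to 417 CPM in younger mice. The share of the immunoproteasome in old mice was 57.3% ± 3.50 (n = 3) against 59.7% ± 4.99 (n = 8) in B-cells, while CD4+ T-cells had 65.7% ± 13.1 against 56.3% ± 5.58 and CD8+ T-cells had 70.6% ± 6.30 against 64.7% ± 6.36. These differences of -2.41, 9.39 and 5.87 percentage points carry no test, and the ranges overlapped in each type. Per kb of the principal transcript they were -2.67, 4.23 and 7.96 percentage points, and with no division by length -2.41, 2.43 and 5.96. No old mouse had 3 NveCD4T cells and 3 of 3 had EffCD4T, so age and the mix of CD4+ T-cells cannot be told apart. Within EffCD4T the shares were 69.0% ± 14.3 and 62.2% ± 14.4 (3 and 6 mice), and within MemCD8T 68.2% ± 8.04 and 64.5% ± 9.59 (3 and 8 mice).

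**Figure D5:**
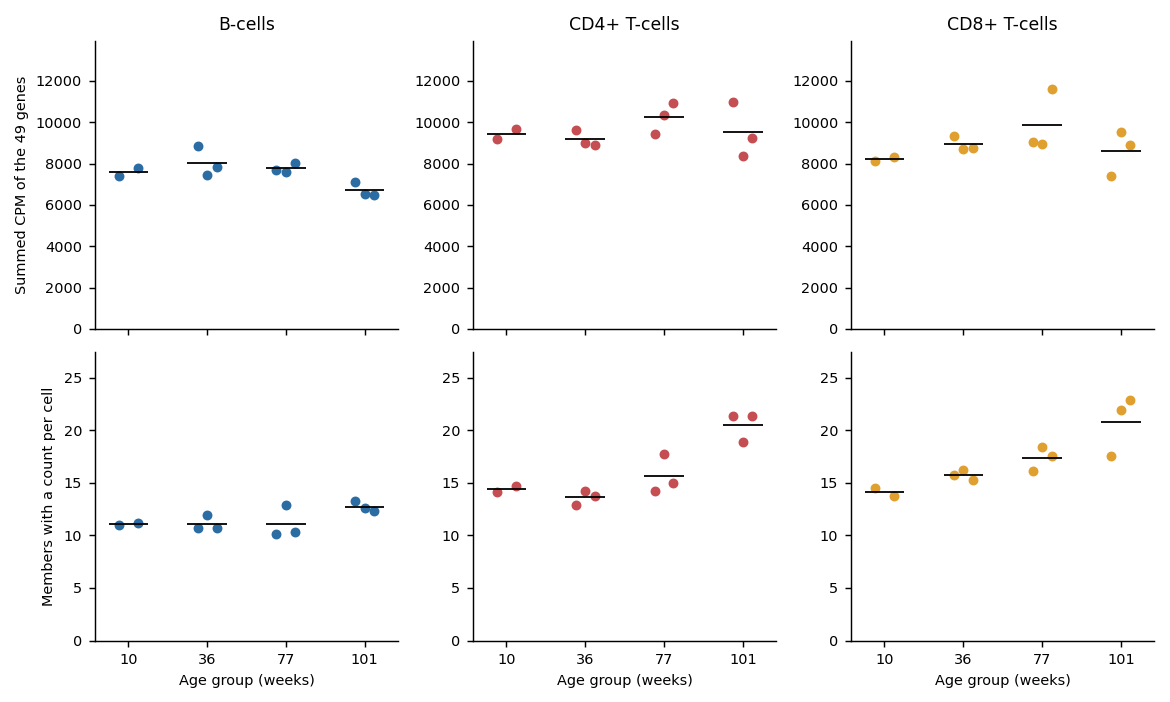
Summed CPM of the 49 genes (top) and mean number of the 49 genes with a count per cell after a draw of 150000 counts (bottom) for each mouse by age group and type, with lines at the means. The 3 old mice lie below the others for the sum in B-cells (6466 to 7096 CPM) and above them for the number detected in CD4+ T-cells (mean 20.5 against 14.6).

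Detection of the members in single cells was described next. After a draw of 150000 counts per cell, a cell held a count for 11.6 ± 1.10 of the 49 genes among B-cells (SD over 11 mice), while CD4+ T-cells had 16.2 ± 3.08 and CD8+ T-cells had 17.3 ± 2.89. In old mice the means were 12.7 ± 0.525 against 11.1 ± 0.899 in B-cells, while CD4+ T-cells had 20.5 ± 1.42 against 14.6 ± 1.41 and CD8+ T-cells had 20.8 ± 2.81 against 15.9 ± 1.52. In CD4+ T-cells the lowest old mouse (18.9) exceeded the highest younger one (17.7), while in B-cells and CD8+ T-cells the groups overlapped. The mix of T-cells moved with age as well, and the subtypes differed in detection: a cell held a count for 13.2 ± 1.04 members in NveCD4T and 18.5 ± 3.04 in EffCD4T, and for 16.4 ± 4.01 in NveCd8T and 18.6 ± 2.76 in MemCD8T. Within EffCD4T old and younger mice had 21.6 ± 2.01 and 17.0 ± 2.18 (3 and 6 mice), and the groups overlapped (lowest old mouse 19.7, highest younger mouse 21.1). Within MemCD8T they had 20.8 ± 2.82 and 17.7 ± 2.36 (3 and 8 mice), with overlap again. The number of all genes found per cell at equal depth moved the same way, for CD4+ T-cells to 2809 ± 153 from 2205 ± 102 and for CD8+ T-cells to 3129 ± 31.6 from 2377 ± 134, and the part of either in the detection of the members was not tested. Marker genes moved with age in these types as well. In CD4+ T-cells the summed level of the T-cell markers Cd3d, Cd3e and Trac was 1758 to 2051 CPM in old mice and 2209 to 3265 CPM in younger mice, without overlap. That of the 3 monocyte markers was 514 to 1601 against 4.28 to 456 CPM, again without overlap. Of these 3, Ly6c2 (mean 248 CPM, a gene that T-cells also express) made up nearly all of it, Csf1r lay at 1.25 CPM and the defining gene Lyz2 was at 0. In CD8+ T-cells the T-cell markers (1627 to 2102 against 1766 to 2997 CPM) and the monocyte markers (1334 to 2368 against 314 to 1559 CPM) overlapped. Haemoglobin lay at 0 to 26983 CPM in old and 1153 to 69654 CPM in younger CD4+ T-cells, and at 0.218 to 197 against 89.4 to 42652 CPM in CD8+ T-cells. The part of these differences in the detection of the members was not tested.

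Gene by gene, 0 of 19 members were found in a larger share of B-cells in every old mouse than in every younger one, where 12.0% of all tested genes were. In CD4+ T-cells 3 of 29 were, beside 8.20% of all genes: the ATPases Psmc1 (61.1% ± 9.62 of cells against 30.2% ± 10.1) and Psmc3 (76.4% ± 20.6 against 27.9% ± 10.4) and the ubiquitin receptor Psmd4 (84.7% ± 16.8 against 35.7% ± 6.17). In CD8+ T-cells 5 of 32 were, beside 9.98%: Psmb1 (96.1% ± 4.19 against 73.5% ± 8.65), Psmb4 (63.3% ± 10.3 against 29.6% ± 11.2), Psmb8 (98.9% ± 1.99 against 82.8% ± 9.65), Psmb10 (65.4% ± 7.71 against 44.6% ± 9.89) and Psmd4 (58.0% ± 0.784 against 39.2% ± 11.4). Each of these genes was also found in a larger share of the more frequent subtype of old mice, counted without the draw and over all ages. These shares ran from 42.2% of EffCD4T and 35.3% of NveCD4T cells for Psmc1 to 95.3% of MemCD8T and 81.9% of NveCd8T cells for Psmb8. Old mice gave 9 of 45 EffCD4T and 2 of 85 NveCD4T cells, and 41 of 106 MemCD8T and 7 of 72 NveCd8T cells. Age and depth therefore cannot be told apart from subtype in these shares, and the part of the mix was not tested. The 5 genes of CD8+ T-cells and the 3 of CD4+ T-cells overlapped between the ages in level. In cells that the authors classed as without contaminating red blood cells 1 member (CD4+) and 2 members (CD8+) lay above the younger mice, beside 3.77% and 4.15% of all genes. At a minimum of 10 counts in a cell these numbers were 3 and 3, beside 6.86% and 7.59%, and within lane 2 they were 4 and 10, beside 15.4% and 22.9%. In B-cells they were 0 under each of these settings, beside 8.77%, 10.5% and 21.8%.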

How the data were processed

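Single blood cells were sequenced by the authors with scM&T-seq without molecular identifiers, so reads are not independent molecules. The authors trimmed reads with Trim Galore 0.6.7, aligned them with STAR to GRCm38 and deposited raw counts per gene (Ensembl 96), unstranded, so overlapping genes cannot be separated. Mouse, age and cell type came from the study's cell table, and 981 of 1055 cells passed the authors' filters. No doublet caller was run. Counts were summed per mouse and type (at least 3 cells), and protein-coding genes with a count in at least 25% of cells of a type (between types, as the mean over B-cells, CD4+ and CD8+ T-cells or over both subtypes) that were also found in 5 or more cells of each of 2 ages were tested with edgeR 4.0.16 (robust quasi-likelihood, TMM) in R 4.3.3, with the mouse as block between types, since types of 1 mouse share its plate, and Benjamini-Hochberg adjustment over all tested genes (threshold 0.1). The mouse was the replicate. DESeq2 1.42.0, limma 3.58.1, other filters, cells of the authors' class without contaminating red blood cells, genes found per cell as a covariate and leaving out each mouse were alternatives. The test was also run on simulated data with changes larger than that of any member called. That run does not show how often smaller changes are found, and its outcome is not reported here. Genes named were the catalytic genes, Psme1 to Psme3, members called, up to 3 per direction with the smallest unadjusted p under 0.05, the 5 highest and the lowest per kb, and called genes of class I antigen presentation. Other members named beside a count were chosen after their values were seen. The members and lists were chosen with earlier results of these data known. Some results are not reported here.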

Additional observations from a re-analysis of the deposited data

Results flagged for a closer look

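In the CD8+ T-cells of the 8 younger mice, 1 mouse of 77 weeks stood apart from the rest for 2 members. Psma7 lay at 660 CPM in it and at 424 CPM in the next mouse, and Psmb6 at 472 CPM against 256 CPM. These were 2 of 54 groups of younger mice examined, and chance alone flags about 1 in 20 such groups. Processed pseudogenes, which no comparison used, held a few counts: Psmb6-ps2 had 70 counts over 49 cells and Psmb5-ps had 6 counts over 6 cells.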

How the results depend on the processing

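Of 99 alternatives over 14 results, other than leaving out a mouse, 76 stayed within bounds. Psme2 was called in both comparisons of B-cells with T-cells under each of its 8 alternatives and each of the 11 fits without a mouse. The count of members called in B-cells against CD4+ T-cells was 5, and it was 8 with DESeq2, 19 with limma and 1 with DESeq2 size factors, a 10% detection filter, no filter or the cells that the authors classed as without contaminating red blood cells (class 0). Against CD8+ T-cells it was 5, and it was 3 with DESeq2 or its size factors, 22 with limma and 1 with no filter or in class 0 cells. DESeq2 called 1 member between memory and naive CD8+ T-cells, 4 between effector and naive CD4+ T-cells, 4 with age in B-cells and 1 in CD8+ T-cells. Limma called 1 member between effector and naive cells and 1, 3 and 3 with age in B-cells, CD4+ and CD8+ T-cells, where it put the median of all genes at 0.54, 0.62 and 0.80 (edgeR, -0.05, -0.06 and -0.05). The count of members detected in more cells of every old mouse was 1 in CD4+ and 2 in CD8+ T-cells in class 0 cells, and in CD8+ T-cells 3 at a minimum of 10 counts and 10 in lane 2, both chosen after seeing the data. With limma Psmb2 turned to -0.28 in B-cells against CD8+ T-cells, and in class 0 cells Psmb6 turned to -0.0013 in CD4+ against CD8+ T-cells. The cause of these changes was not tested. Without the replicate block that pairs the types of a mouse, 5 and 4 members were called in B-cells against CD4+ and CD8+ T-cells and 0 in the other type comparisons, with Psmb3 and Psmb2 no longer called. A minimum of 10 cells could not be fitted for memory against naive CD8+ T-cells, effector against naive CD4+ T-cells and age in CD4+ T-cells.

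Without 1 mouse at a time, 1 to 4 members were called in B-cells against CD4+ T-cells (1 without mouse 1 or 23, 2 without 3, 22 or 24, 3 without 2, 14 or 15), 3 to 5 against CD8+ T-cells (3 without 2, 14, 15, 22 or 23) and 0 to 1 between effector and naive CD4+ T-cells (1 without mouse 24). Members detected in more cells of every old mouse numbered 0 to 1 in B-cells (1 without mouse 2, 3 or 22), 3 to 8 in CD4+ T-cells (8 without mouse 1 or 2, 6 without 3) and 5 to 12 in CD8+ T-cells (12 without mouse 1). The age difference of the immunoproteasome share ranged from -3.67 to -0.41 percentage points in B-cells, 2.37 to 15.4 in CD4+ and 2.53 to 8.79 in CD8+ T-cells. With 3, 6 and 8 CD4+ T-cells, the old mice limit what those comparisons can show.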
